A study of Mus musculus with 2 samples.

Results

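The 8 membrane ADAM proteases Adam8, Adam9, Adam10, Adam12, Adam15, Adam17, Adam19 and Adam33 were examined in mouse lung fibroblasts, as the rows of the deposited count table that carry these symbols. All 8 symbols were present among 16040 genes. The fibroblasts came from Col1a2-EGFP mice, in which a promoter of the collagen gene Col1a2 drives a green fluorescent reporter, and both groups carried this reporter. The saline group received saline into the trachea and the bleomycin group received bleomycin, a DNA-damaging drug that produces lung fibrosis, and lungs were taken on day 14. Lineage-negative, GFP-positive cells were sorted, and RNA was counted by SAGE, which reads 1 short tag near the 3′ end of each transcript. Each group is 1 library from 3 mice, so no difference has a replicate check, and a test on the counts compares the libraries and not the conditions. The cells are those in which the reporter was active, so fibroblasts without it were not sampled. The labels used here give neither the age of the mice nor the lineage markers.

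ADAM proteins are type I membrane proteins built from a prodomain, a metalloprotease domain, a disintegrin domain, a cysteine-rich region and a cytoplasmic tail. Many cut other membrane proteins close to the cell surface, a step called ectodomain shedding, which releases growth factors, cytokines and adhesion molecules and opens the way for cleavage inside the membrane. Adam17 is the main sheddase of tumour necrosis factor and of several ligands of the epidermal growth factor receptor, and Adam10 makes the first ligand-dependent cut in Notch. Adam12 and Adam19 are known as the meltrins alpha and beta of muscle, bone and mesenchyme, and Adam12 is known from activated stroma.

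Because the measured unit is a tag, the expected tags of the 8 genes are shown first. Tags of this kit lie next to an NlaIII site, CATG, by general knowledge of the kit and not by the labels. The tag of each gene was therefore read from the GENCODE M21 transcript (assembly GRCm38) that carries the deposited RefSeq accession, at the CATG nearest to the 3′ end with the 23 bases after it. Capitals mark the NlaIII site.
Adam12: CATGctgttatttttgtacgcatttct
Adam9: CATGagcactttaactctaaactctga
Adam10: CATGcactgaactgtttccactacaaa
Adam17: CATGttcacagaatgtttgtggctacc
Adam15: CATGgacactgtctatctctgctctgt
Adam33: CATGttgtatcccgcctgccctgagag
Adam19: CATGgtgccttgttttttgttgttgtt
Adam8: CATGaaccagtggcctctcactggcct
These are predictions, since the labels do not say which tags the authors counted. All 8 lie in the 3′ UTR of the last exon. The Adam12 tag is at chr7:133883294-133883320 on the minus strand, in exon 23 of 23, and the Adam9 tag is at chr8:24949987-24950013 on the minus strand, in exon 22 of 22. The Adam10 tag is at chr9:70779994-70780020 on the plus strand, in exon 16 of 16, and the Adam17 tag is at chr12:21323517-21323543 on the minus strand, in exon 19 of 19. No predicted tag occurred in the sense strand of a transcript of another gene, and any 2 of them differed at 10 or more of 27 positions, so an exact match would tell the 8 genes apart. The Adam17 tag is also antisense to a transcript of Iah1, a neighbour on the other strand, and no label says whether strand was used. Iah1 had 182 and 181 counts. Of the 8 genes, 5 have the same predicted tag in all coding transcripts with a complete 3′ end, while Adam12, Adam17 and Adam33 have coding transcripts that would give another tag. The second Adam12 tag is shown because Adam12 is the gene that was called, and it comes from a transcript of 3492 bases with its own 3′ end.
Adam12 short transcript: CATGactgggtaaataaatccacgtca
The deposited value is 1 count per gene, so the transcripts of Adam12, and those of Adam17 and Adam33, could not be counted apart.

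The libraries held 1080798 saline and 1099840 bleomycin counts. Fibroblast markers were abundant in both, with 14717 and 22307 counts over 8 genes, of which 2 were called higher and 2 lower by the test described with Adam12 and a 2-fold minimum. The higher ones were Col1a1 (2714 and 7925 counts) and Col1a2 (1636 and 5613), chains of type 1 collagen. A Col1a2 promoter drove the sorted reporter, so the counts of this gene are not independent of the sort. The lower ones were the proteoglycan gene Dcn (4861 and 1606) and the transcription factor gene Tcf21 (338 and 93). Leukocyte markers were nearly absent, with 9 and 11 counts in sum over 11 of 14 listed genes found, and Ptprc, the leukocyte surface protein CD45, had 0 and 1. Mesothelial markers had 5 and 9 counts over 3 genes. Endothelial markers had 506 and 30 counts in sum over 10 genes, with 8 of 8 tested lower, and epithelial markers had 223 and 32 over 11 genes, with 2 of 4 tested lower. The lower epithelial ones, Sftpc (154 and 7) and Scgb1a1 (46 and 12), held most of that saline sum. Epcam had 1 and 0 counts, and Cdh1 and Nkx2-1 had 0 in both libraries. Smooth muscle and pericyte markers had 645 and 797 counts over 6 genes, with 2 of 5 tested lower. The lower ones were Myh11 (237 and 106) and Cnn1 (17 and 4). Acta2 went the other way, with 328 and 609 counts and a ratio of 1.88 that stayed under the 2-fold minimum.

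Adam12 was counted in the bleomycin library and not in the saline library. It had 0 saline counts and 45 bleomycin counts. A floor of 3 counts, a set value, stands for 2.74 CPM in the saline library. CPM is the count scaled to library size by the TMM method. For the 0 saline counts of Adam12, the upper limit of the exact 95% Poisson interval was 3.36 CPM. The bleomycin level was 41.5 CPM, with an exact 95% Poisson interval of 30.3 to 55.5 that covers counting error only, and it lay above 75.7% of the genes counted in that library. Against the floor, Adam12 was 15.2-fold higher, a value that leaves out the counting error of its 45 bleomycin counts. The lower limit of the exact 95% interval of the ratio was 11.8. The exact binomial test of the libraries, adjusted over all 9369 genes tested, gave an adjusted p of 5.39e-13. A gene was tested with at least 10 counts in sum, so Adam12 entered the test through its bleomycin counts alone. Taking Adam12's own values as limits, 0 saline counts and 45 or more bleomycin counts, 3 genes of the whole table met them. Adam12 is among the 3 by construction. In sorted cells measured in bulk, more cells that carry a transcript and more of it in each cell cannot be told apart.

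A gene was called when its adjusted p was under 0.05 and the libraries differed at least 2-fold after 0.5 was added to each count. Of the 8 ADAM genes, 6 reached the minimum count, 1 was called higher and 0 were called lower. Over all genes tested, 8.08% were called higher, 8.52% lower and 16.6% in either direction. A single call among 6 tested genes is not far from that background, so it is a result on Adam12 and not on the family. Adam12 was also called with edgeR's exact test with the coefficient of variation between preparations assumed to be 0.4, with an adjusted p of 0.0140, where 21 genes of the whole table were called higher and 8 lower.

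**Figure D1:**
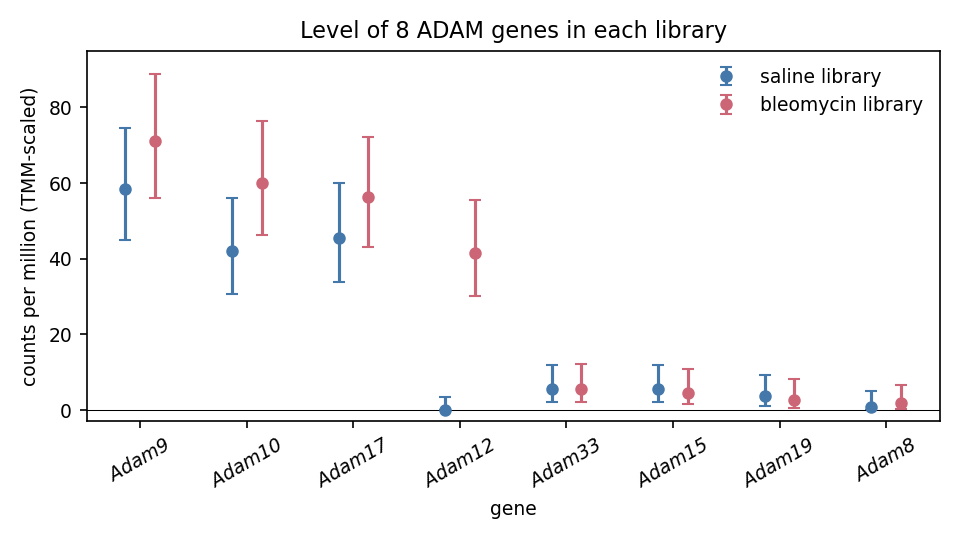
Level of each ADAM gene in CPM, with exact 95% Poisson intervals, in the saline library (blue) and the bleomycin library (red). Adam12 is at 0 in saline and 41.5 in bleomycin, Adam9, Adam10 and Adam17 lie between 42.0 and 71.0 in both, and the other 4 genes lie under 6 CPM.

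Adam9, Adam10 and Adam17 carried most of the ADAM counts in both libraries, and none of them was called. Adam9, a widely expressed sheddase also named meltrin gamma, had 64 saline and 77 bleomycin counts. Its ratio was 1.22 (exact 95% interval 0.862 to 1.72, adjusted p = 0.466), so the interval held no change and left out a ratio of 2 in either direction. Adam17, the tumour necrosis factor converting enzyme, had 50 and 61 counts, a ratio of 1.23 (0.835 to 1.83, adjusted p = 0.493). Its interval also left out 2, within counting error. Adam10, the Notch sheddase, had 46 and 65 counts, a ratio of 1.43 (0.965 to 2.13, adjusted p = 0.178), and here a ratio of 2 remained inside the interval. Summed, these 3 genes had 160 and 203 counts, a ratio of 1.28 (1.04 to 1.59). All 3 had the larger count in the bleomycin library, by less than the fold a call requires. At the 111 counts of Adam10 or Adam17, a call needed at least 74 counts in the bleomycin library against 37 in the saline library.

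The remaining 4 genes were near the limit of detection, and the depth decides what can be said of them. Adam33, known as a gene linked to asthma and expressed in airway mesenchyme, had 6 counts in each library. Its ratio was 1.01 (0.270 to 3.78, adjusted p = 1). Adam15, a protease of endothelium and other cells also named metargidin, had 6 and 5 counts, a ratio of 0.843 (0.203 to 3.31, adjusted p = 1). With its 11 counts in sum, Adam15 needed at least 10 of them in the bleomycin library to be called higher. Adam19, meltrin beta, a sheddase of neuregulin known from heart development, had 4 and 3 counts and was not tested. Adam8, known mainly from leukocytes and osteoclasts, had 1 and 2 counts and was not tested. The leukocyte markers named above were near 0 in the same libraries, and a link to the Adam8 counts was not tested. Changes of several fold in these 4 genes were not detectable at this depth.

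**Figure D2:**
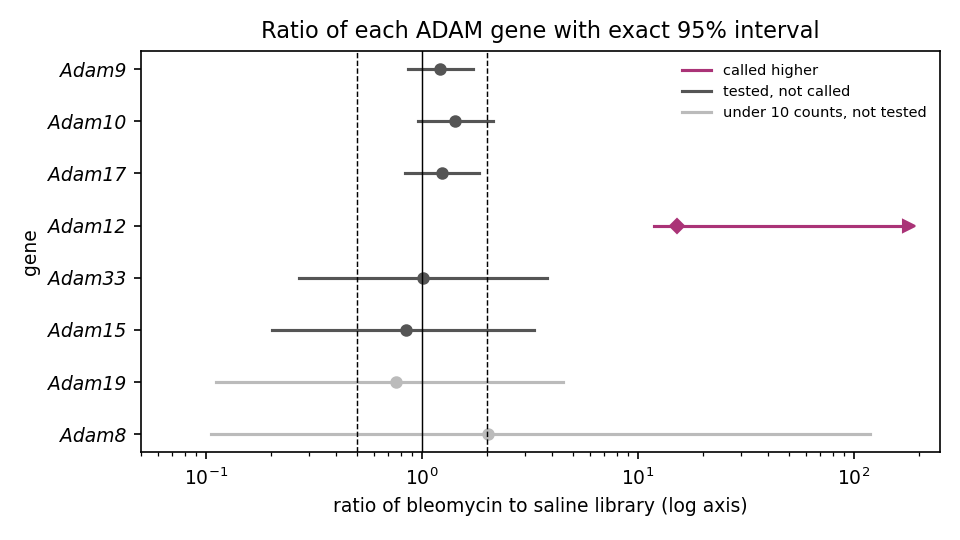
Ratio of the bleomycin to the saline library for each ADAM gene on a log axis, with exact 95% intervals, and lines at 1 (solid) and at 0.5 and 2 (dashed). Adam12 is drawn at 15.2, its value against the floor of 3 counts. Its interval starts at 11.8 and has no upper end, and all the other intervals include 1.

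The order of levels within a library can be read because a tag count does not scale with transcript length, although tags of different genes may be recovered unequally. In saline the order was Adam9, Adam17, Adam10, then a step down to Adam15 and Adam33, Adam19, Adam8 and Adam12. Of the neighbours in that order, only Adam10 and Adam15, at 46 and 6 counts, had a ratio whose exact 95% interval lay above 1, from 3.27 upwards. In bleomycin the order was Adam9, Adam10, Adam17, Adam12, then Adam33, Adam15, Adam19 and Adam8. There the step lay between Adam12 and Adam33, at 45 and 6 counts (3.19 to 21.5). The ratio of Adam17 to Adam12 had an interval of 0.907 to 2.04, which includes 1. Each gene's share of the family's counts was also taken. Adam12 made up 0% of 177 saline counts (exact binomial interval 0 to 2.06%) and 17.0% of 264 bleomycin counts (12.7 to 22.1%). Adam9 made up 36.2% (29.1 to 43.7%) and 29.2% (23.8 to 35.1%). The family's summed ratio was 1.51 (1.24 to 1.84), and without Adam12 it was 1.25 (1.02 to 1.53). These intervals cover counting error only, and the sum without Adam12 was taken with TMM scaling alone.

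**Figure D3:**
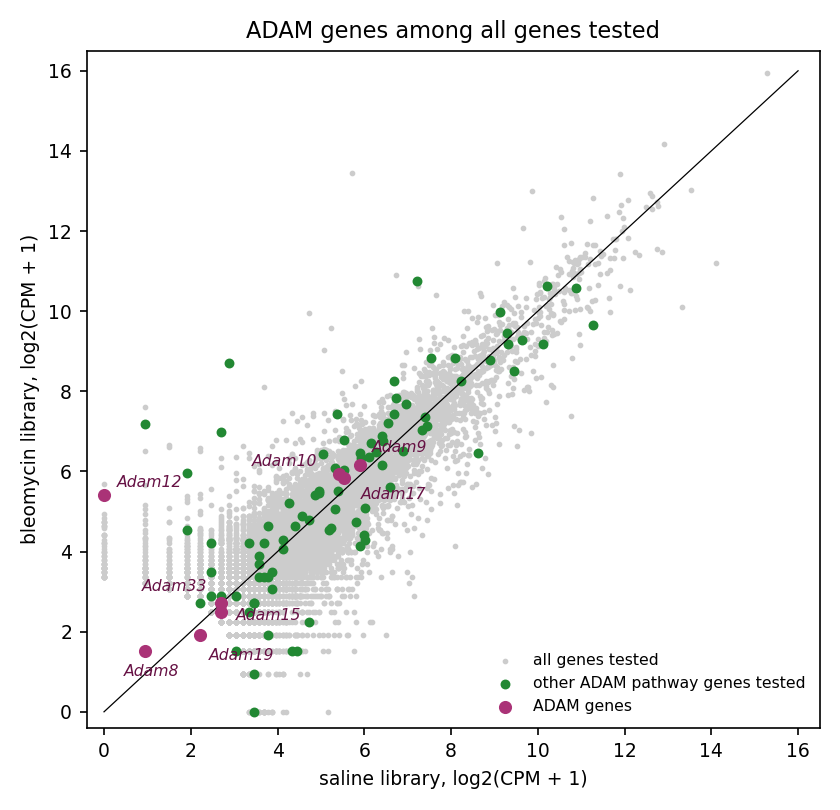
Level in the bleomycin library against the saline library, as log2(CPM + 1), for all genes tested (grey), tested genes of the ADAM pathway lists (green) and the 8 ADAM genes (purple). Adam12 sits on the left edge at 0 saline counts, while the other 7 ADAM genes lie near the line of equal levels.

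Genes that mature, move and inhibit ADAM proteins were taken from fixed lists. The lists were chosen with earlier results of these data known. Their counts stand beside a background of 8.08% of all tested genes called higher and 8.52% lower. Of the maturation and trafficking genes, 9 of 11 found were tested, and 1 was higher and 1 lower. Both called genes encode proprotein convertases, enzymes that cut prodomains. Pcsk5 rose from 116 to 247 counts, a ratio of 2.15 (1.72 to 2.71, adjusted p = 5.19e-11 in the exact binomial test). Pcsk6 fell from 28 to 4 counts, 6.92-fold lower (2.42 to 27.2, adjusted p = 1.71e-04). Furin, the convertase best known for activating ADAMs, had 33 and 47 counts and a ratio of 1.44 that was not called. The iRhom genes, whose products escort Adam17 to the surface, were not called either. Rhbdf1 had 64 and 95 counts and Rhbdf2 had 39 and 24. Frmd8, which stabilises the iRhom complex, had 43 and 73 counts and a ratio of 1.72. Tspan5 and Tspan17, tetraspanins that escort Adam10, had ratios of 1.48 and 1.97, under the fold required. The median log2 ratio of the tested genes of this list was 0.57, beside 0.016 over all genes tested.

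The inhibitors moved in both directions, with 1 of 5 higher and 2 lower. Timp3, the tissue inhibitor of metalloproteinases that blocks Adam17 and other ADAMs, fell from 2733 to 877 counts, 3.08-fold lower (2.85 to 3.33). Timp1, which inhibits Adam10 and few other ADAMs, rose from 163 to 1883 counts, a ratio of 11.7 (9.95 to 13.8). Reck, a membrane-anchored inhibitor that also acts on Adam10, fell from 70 to 20 counts (3.46-fold lower, 2.08 to 6.01). Timp2 had 2074 and 1666 counts, and Timp4 had 12 and 10. The ratio of Timp3 counts to Adam17 counts was 54.7 (41.3 to 73.8) in saline and 14.4 (11.1 to 19.0) in bleomycin. That of Timp3 to Adam10 was 59.4 (44.4 to 81.3) and 13.5 (10.5 to 17.6). Set against Adam10, Timp1 went the other way, rising from 163 to 1883 counts while Adam10 had 46 and 65. Tags of different genes may be recovered unequally, so these are ratios of counts and not of proteins. The summed counts of the 4 Timp genes changed less, from 4982 to 4436, a ratio of 0.900 (0.865 to 0.938). The median log2 ratio of the 5 genes was -0.30.

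Membrane-anchored ligands of the epidermal growth factor receptor, which ADAMs release, contained 3 called genes, all higher, of 6 tested members of the ligand and receptor list. Ereg, epiregulin, rose from 7 to 449 counts, a ratio of 64.9 (31.2 to 162). Areg, amphiregulin, a classic Adam17 substrate, rose from 3 to 66 counts, a ratio of 22.2 (7.29 to 111). Hbegf, the heparin-binding ligand cut by Adam17 and Adam12, rose from 35 to 93 counts, a ratio of 2.69 (1.80 to 4.09). Btc, betacellulin, an Adam10 substrate, had 40 and 25 counts, and the receptor Egfr had 50 and 70. Neither was called. The median log2 ratio of the 6 genes was 0.96.

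Notch receptors, ligands and targets contained 5 called genes of 9 tested, all lower. Notch1 fell from 60 to 28 counts (2.12-fold lower, 1.33 to 3.45, adjusted p = 0.00491 in the exact binomial test). Notch4, a receptor of endothelium, fell from 21 to 2 counts (10.4-fold lower, 2.54 to 91.3). Hey1, a transcription factor gene that Notch activates, fell from 23 to 2 counts (11.4-fold lower, 2.81 to 99.5). The other two called genes, Hey2 with 14 and 3 counts and the ligand Dll4 with 11 and 0, were named after their values were seen. Heyl, the most abundant gene of the list, had 191 and 151 counts, and Hes1 had 28 and 29. Neither was called. Endothelial markers, with 461 CPM in sum in saline and 27.7 CPM in bleomycin, moved with this list, and their part in it was not tested. The median log2 ratio of the list was -1.07. Its 5 lower calls became 1 with at least 50 counts in sum and 0 with Bonferroni adjustment. In edgeR's exact test they became 3 with an assumed coefficient of variation of 0.2 and 0 with 0.4.

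Adhesion molecules and proteoglycans that ADAMs shed had 5 of 17 tested genes higher and 2 lower, with a median log2 ratio of 0.11. Chl1, a neural adhesion molecule that Adam8 cuts, rose from 1 to 157 counts, a ratio of 159 (28.1 to 6311) whose size is uncertain at 1 saline count. Sdc1, syndecan, rose from 6 to 136 counts, a ratio of 22.9 (10.3 to 63.6). Cd44, the hyaluronan receptor cut by Adam10, rose from 111 to 330 counts, a ratio of 3.01 (2.42 to 3.76). Nrcam and Ncam1, neural adhesion molecules named after their values were seen, had ratios of 2.41 and 3.84. Mcam, an adhesion molecule of endothelium and pericytes, fell from 64 to 18 counts (3.52-fold lower, 2.06 to 6.30). The other lower gene was Cdh5, the cadherin of endothelium, with 11 and 1 counts, named after its values were seen. Cdh11, a fibroblast cadherin, had 523 and 478 counts, and Vcam1 had 685 and 763. Icam1 had 762 and 395 counts (1.91-fold lower, 1.69 to 2.16), and Sdc4 had 868 and 670 (1.28-fold lower, 1.16 to 1.42). None of these was called, since all stayed under the fold required.

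Cytokines, receptors and other proteins that ADAMs shed or cleave had 0 of 20 tested genes higher and 1 lower, with a median log2 ratio of -0.0012. Igfbp3, a binding protein of insulin-like growth factors that Adam12 cleaves, fell from 428 to 95 counts (4.45-fold lower, 3.56 to 5.62). Igfbp5, another Adam12 substrate, had 92 and 77 counts and was not called. The amyloid precursor gene App, a substrate of Adam10, had 1309 and 1710 counts and a ratio of 1.32. The receptor kinase gene Axl had 297 and 494 counts, Tnfrsf1a, the tumour necrosis factor receptor, had 101 and 158, and Lrp1 had 1217 and 633. All of these stayed under the fold required. Tnf itself, the namesake substrate of Adam17, had 0 and 1 counts.

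Proteins that bind the ADAM tail or disintegrin domain were also taken from fixed lists. Of 14 tested tail adaptors, 2 were higher and 1 lower, with a median log2 ratio of 0.40. Actn1, an actin crosslinker of the alpha-actinin type that binds the Adam12 tail, rose from 204 to 492 counts, a ratio of 2.44 (2.07 to 2.89). Mad2l1, a mitotic checkpoint protein that binds Adam17, rose from 3 to 24 counts, a ratio of 8.09 (2.46 to 42.0). Sh3d19, an adaptor also named EVE-1, fell from 69 to 22 counts (3.10-fold lower, 1.90 to 5.26). Sh3pxd2a, the podosome scaffold that binds Adam12, had 84 and 96 counts, and its relative Sh3pxd2b had 112 and 185. Neither was called. Of 5 tested integrin subunits, 1 was higher and 0 lower, with a median log2 ratio of 0.71. Itga5, the fibronectin receptor chain, rose from 44 to 187 counts, a ratio of 4.30 (3.08 to 6.11). Itga9, a partner of Adam12 and Adam15, had 75 and 88 counts, and the common beta chain Itgb1 had 617 and 1102, a ratio of 1.81 that stayed under the fold required.

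**Figure D4:**
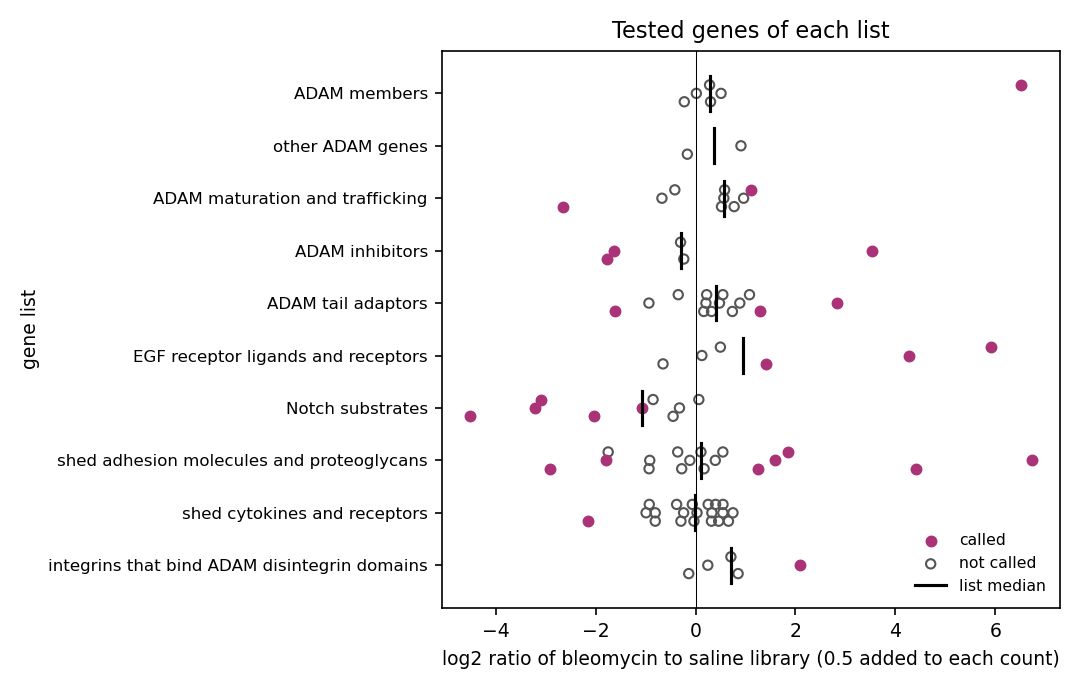
Log2 ratio of each tested gene of the 10 lists, with 0.5 added to each count, where filled points were called and bars mark list medians. Adam12 stands alone at 6.52 among the ADAM genes, all 5 called Notch list genes lie on the left, and all 3 called genes of the epidermal growth factor list lie on the right.

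Over the 9 lists beside the members, 87 of 127 genes found were tested, 13 were called higher and 12 lower. These are 14.9% and 13.8% of the tested list genes, beside 8.08% and 8.52% of all genes tested, and no test of that difference was made. The lists were chosen with earlier results known and were not matched to the other genes by count level, so no conclusion is drawn from it. Of 20 called genes named from these lists by the naming rule, 4 kept a call in edgeR's exact test with an assumed coefficient of variation of 0.4, and these were Timp1, Ereg, Chl1 and Sdc1. Areg missed it with an adjusted p of 0.0506.

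With 1 library a group, a likeness of pattern rests on 2 values. By distance in log2(CPM + 1) of both libraries, the 3 tested genes nearest to Adam12 were Pycard, an inflammasome adaptor, with 0 and 45 counts, Cdk1, the mitotic kinase, with 0 and 55, and Ccna2, a cyclin, with 0 and 32. Their distances were 0, 0.283 and 0.478. The genes nearest to Adam9 were Snhg1, a host of small nucleolar RNAs, with 63 and 78 counts, Anapc1, a subunit of the anaphase-promoting complex, with 65 and 75, and G3bp2, a stress granule protein, with 66 and 76. Their distances were between 0.029 and 0.047.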

How the data were processed

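SAGE libraries of sorted lung cells, 1 per group, were made with a SOLiD kit from total RNA, per the labels' protocols. BWA 0.6.2 and mm9 are named, without their roles, per the submitters' processing notes; no source used here says how tags were assigned to genes. The authors deposited 1 table of whole-number counts per gene; no label says whether they were scaled, so the tests and intervals hold only for raw counts. After 1 blank line was left out, 16040 genes remained. Totals were scaled by TMM (factors 1.01 and 0.986, edgeR 4.0.16, R 4.3.3). The quasi-likelihood test needs replicates and could not be fitted. Genes with at least 10 counts in sum were tested by a two-sided exact binomial test given the sum, with Benjamini-Hochberg adjustment over 9369 genes. Ratios have exact Clopper-Pearson 95% intervals, and a 0 has a floor of 3 counts, both for counting error only, since no molecular identifiers are named. The test was checked on simulated counts that held counting error only, so the check does not cover variation between preparations. Named genes were the 8 members, up to 3 called genes per list and direction that reached 20 counts in 1 library, the most abundant gene of a list with no call, and the 3 tested genes nearest to Adam12 and to Adam9; any other gene named was chosen after its values were seen. The members and lists were chosen with earlier results of these data known. Alternatives changed scaling (totals, DESeq2 1.42.0 size factors), count minimum, fold, adjustment, prior count and test. Tags were read from GENCODE M21 (GRCm38), a different assembly from mm9. Python 3.11.15, scipy 1.17.1, pandas 2.3.3 and matplotlib 3.10.9 were used.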

Additional observations from a re-analysis of the deposited data

How the results depend on the processing

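The higher call of Adam12 held in all alternatives but 1, with adjusted p between 5.39e-13 and 0.0140. The call could not be lost with a 1.5-fold minimum or a prior count of 5, as neither made the rule stricter. With at least 50 counts in sum, Adam12 (log2 ratio 6.52) was not tested and 0 members were called higher, because its sum is 45. With a prior count of 5 its log2 ratio was 3.34. No member was called lower in any alternative. The ratio of Adam33 turned to a log2 value of -0.025 with total counts, from 0.016, and was not called in either. The family's summed ratio stayed inside its interval with total counts, with DESeq2 size factors, and without Adam9. Over the 9 lists, 13 higher calls became 8 when a 3-fold difference was required, 20 when 1.5-fold was enough and 4 with a coefficient of variation of 0.4. The 12 lower calls became 6 with at least 50 counts, 5 with Bonferroni adjustment and 0 with a coefficient of variation of 0.4. Over all genes, 757 higher and 798 lower calls became 396 and 484 with at least 50 counts, 443 and 445 at 3-fold, 288 and 333 with Bonferroni adjustment, 274 and 333 with a coefficient of variation of 0.2 and 21 and 8 with 0.4. At the median of 26 saline and 25 bleomycin counts per tested gene, small changes could not be called. No paired analysis was possible because each group is 1 library.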

Other observations

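Other ADAM family genes had few counts in the sorted cells. Of 26 symbols listed, most of them known from testis or brain and a few, such as Adam28 and Adamdec1, from immune cells, 15 were found in the table, and they held 27 saline and 32 bleomycin counts in sum, with 7 of them at 0 in both libraries. Adam23, a brain ADAM without a working protease site that binds integrins, was the most abundant, with 10 and 19 counts and a ratio of 1.92 (0.850 to 4.63, adjusted p = 0.221 in the exact binomial test), and it was not called. Adam5, a testis gene, had 8 and 7 counts. Only these 2 genes reached the minimum count, and 0 were called in either direction.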
